A study of Homo sapiens with 6 samples.

Results

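The genes described here encode proteins of the extracellular matrix and the receptors that bind it, measured in DLD-1 cells with and without DKK1. They were chosen by name, as a list of 41 genes that holds matricellular and adhesive glycoproteins, laminin and collagen chains, basement membrane linkers, integrin subunits, and matrix proteases with their inhibitors. Of these, 38 were measured by a probe set of their own, among 18404 genes of the array with one. LAMA3 and COL17A1 are not analysed here, and ITGA1 had only 1 probe set, shared with PELO, which was not used.

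DLD-1 is a line from a human colorectal adenocarcinoma whose APC gene is mutated, and the study states that it makes no DKK1 of its own. DLD-1/DKK1 cells carried a lentivirus whose Tet-On promoter drives V5-tagged human DKK1, a protein that is secreted and blocks Wnt signals at the co-receptors LRP5 and LRP6. The study reports a nuclear share of this protein in these cells, and no effect of it on transcription driven by the Wnt mediator beta-catenin. DLD-1/Mock cells carried the matching vector without DKK1. Both groups received doxycycline, at a concentration that the labels give as 10 mg/ml and the methods in micrograms. Both were transduced populations, and the labels name no clone. The study's supplementary methods give a typical share of green fluorescent cells after transduction, but none for these samples. RNA of 3 dishes per group was hybridised to 6 whole-transcript arrays, which gave log2 expression values for 32321 probe sets. The methods call the dishes independent without saying if each had its own transduction, and a p-value here covers only the spread between dishes, which may be technical.

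The extracellular matrix is a network of secreted proteins that supports cells and binds growth factors. Epithelial cells rest on a basement membrane, a sheet in which laminin and collagen IV networks are joined by nidogen and the heparan sulfate proteoglycans perlecan and agrin. Integrins are heterodimers of an alpha and a beta subunit that anchor cells to these proteins and signal from them, while metalloproteinases and their inhibitors set how fast the matrix is turned over. Fibroblasts supply much of the fibrillar collagen of a tumour and are not part of a cell line culture.

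The labels were checked first on DKK1 itself. Its log2 expression was 12.30, 12.38 and 12.36 in DLD-1/DKK1 and 5.15, 5.74 and 5.01 in DLD-1/Mock, a difference of 7.05 with a standard error (SE) of 0.18 (limma adjusted p = 0.00015). Array medians were 6.79, 6.76 and 6.81 in DLD-1/DKK1 and 6.82, 6.86 and 6.82 in DLD-1/Mock. Every DLD-1/DKK1 median thus lay below every DLD-1/Mock median, and small differences can change sign after median centring. The highest median was that of Mock 2. This array correlated with the other 5 at 0.9953 to 0.9969 across 32321 probe sets, against 0.9973 to 0.9982 for the 10 pairs without it. Differences without Mock 2 are therefore also given for many genes. A gene for which that value is not given may also have moved. Of 8 colorectal epithelial markers, 7 lay above the 95th percentile of 360 olfactory receptor genes, a dim reference at a log2 level of 6.10, and KRT20 lay below it. Of 8 fibroblast markers, only PDGFRB lay above it (DCN and LUM were at 4.39 and 4.19). So did 1 of 5 endothelial, 2 of 5 measured leukocyte and 4 of 4 smooth muscle markers.

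Tenascin-C (TNC), a large hexameric matrix glycoprotein that modulates cell adhesion, had the largest difference of the 38 genes. Its log2 expression was 8.30, 8.39 and 8.22 in DLD-1/DKK1, against 7.86, 7.86 and 7.89 in DLD-1/Mock. The groups did not overlap, and the gap between the groups was wider than the spread within either. The means were 8.30 ± 0.08 and 7.87 ± 0.02 (SD, n = 3 each), which gave a log2 difference of 0.43 (SE 0.05) with a 95% interval of 0.31 to 0.56. On the linear scale this is 1.35-fold, with an interval of 1.24-fold to 1.47-fold, and differences of RMA values (robust multichip average) tend to be compressed.

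The TNC difference did not pass the threshold of 0.05 after adjustment over all probe sets (limma adjusted p = 0.0696; unadjusted 9.64e-05). A permutation test over the arrays, two-sided and exact, cannot go below 0.1 with 3 against 3, and it reached p = 0.1. It passed in 3 alternative fits. With only the probe sets that carry 1 gene symbol, the adjusted p was 0.0141 (limma), and 100 of 19158 probe sets passed (0.522%). Above the median brightness it was 0.0273 (limma), with 66 of 16160 passing (0.408%), and with array weights it was 0.0458 (limma), with 59 of 32321 passing (0.183%). Over the other settings the adjusted p ranged up to 0.410. The difference itself stayed between 0.39 and 0.47 whichever array was left out, and was 0.43 without Mock 2. Among the 18404 genes, 62 had a larger difference in either direction than TNC and 36 a smaller p.

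The promoter of TNC is shown because TNC stood apart from the other genes. The window runs from 250 bases before to 50 bases after the annotated RefSeq start, at chr9:115118108-115118407 on the minus strand of GRCh38.p14. It is written 5′ to 3′ along the gene, and the capitals mark a match to the TATA box letters TATANAA, whose first base lies at position -29 from the start.

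TNC: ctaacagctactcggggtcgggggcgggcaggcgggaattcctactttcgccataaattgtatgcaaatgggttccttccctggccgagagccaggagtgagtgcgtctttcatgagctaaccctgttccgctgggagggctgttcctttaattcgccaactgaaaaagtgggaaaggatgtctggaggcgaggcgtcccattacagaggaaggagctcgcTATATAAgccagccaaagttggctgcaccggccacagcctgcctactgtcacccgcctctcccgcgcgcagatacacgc

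Windows of the same length were found for 27 of the 38 genes, and each motif was searched on both strands. TATANAA stood in 2 of the 27 (7.41%), TNC and the matrilysin gene MMP7, and in 9.10% of all 35116 windows. The GC box GGGCGG stood in 22 of the 27 (81.5%), TNC among them, and in 45.0% of all windows. The TCF/LEF letters CTTTGNT were found in 1 of the 27 (3.70%), that of LAMB2, against 15.4% of all windows, and the AP-1 letters TGANTCA in ITGA5 and MMP7, 7.41%, against 7.71%. The 35116 windows were not reduced to 1 per gene or to genes like these, so the shares are not like for like. Such matches describe letters and not binding.

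**Figure D1:**
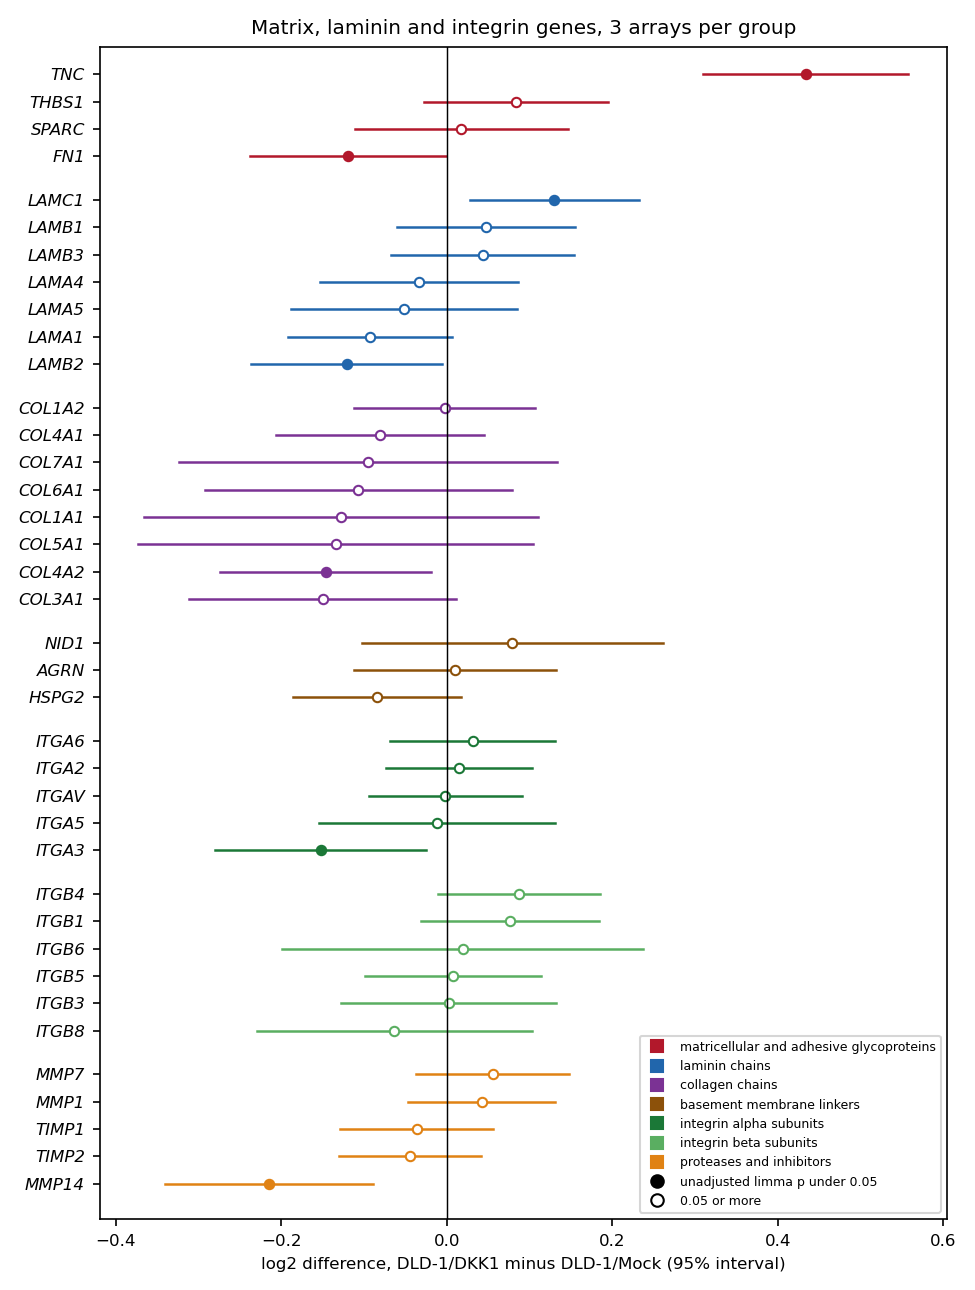
Log2 difference of DLD-1/DKK1 minus DLD-1/Mock (horizontal axis) for the 38 measured genes, grouped by role and coloured by group, with points for the limma estimate, lines for its 95% interval and filled points for an unadjusted p under 0.05. TNC lies at 0.43, and the other genes lie between -0.22 and 0.13.

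None of the 38 genes passed an adjusted p of 0.05 in limma, where 28 of 32321 probe sets did (0.0866%). At an unadjusted limma p under 0.05 there were 7 of 38 (18.4%), namely TNC and LAMC1 higher and FN1, LAMB2, COL4A2, ITGA3 and MMP14 lower in DLD-1/DKK1. The background was 9.23% of all probe sets, 4.02% higher and 5.21% lower, and 10.1% of genes with 1 probe set each. After median centring 5 were higher and 1 lower, beside 11.5% of all probe sets in that fit. After quantile normalisation 1 was higher and 3 lower, beside 8.37%. The count was 11 (4 higher, 7 lower) without moderation, beside 8.61% of all probe sets, and 4 with the replicate block, beside 7.52%. It was 4 without Mock 2, where LAMB2, COL4A2 and ITGA3 dropped out, 2 without DLD-1/DKK1 1 or without DLD-1/DKK1 3, and 5 or 6 without any other array. The shares of all probe sets were 7.81% without Mock 2, 5.92% without DLD-1/DKK1 1 and 9.13% without DLD-1/DKK1 3. Without any other array they ran from 6.17% to 9.95%. The groups did not overlap for 15 of 38 genes, 6 higher and 9 lower, against 16.5% of all probe sets and 19.5% of genes with 1 probe set each. Of the 38 differences, 17 were above 0 and 21 below, with a median of -0.0072, and over all probe sets the median was -0.0063. After median centring 24 were above 0 and 14 below. Without TNC they ran from -0.22 to 0.13, so that the lower bound of the TNC interval, 0.31, lay above each of the other 37 estimates. On every array the median level over the other 37 genes was that of a single gene, ITGB8. It was 7.90, 7.78 and 7.81 in the DLD-1/DKK1 arrays and 7.83, 7.82 and 8.03 in the DLD-1/Mock arrays. These ranges overlapped, and they describe ITGB8 and not the set.

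**Figure D2:**
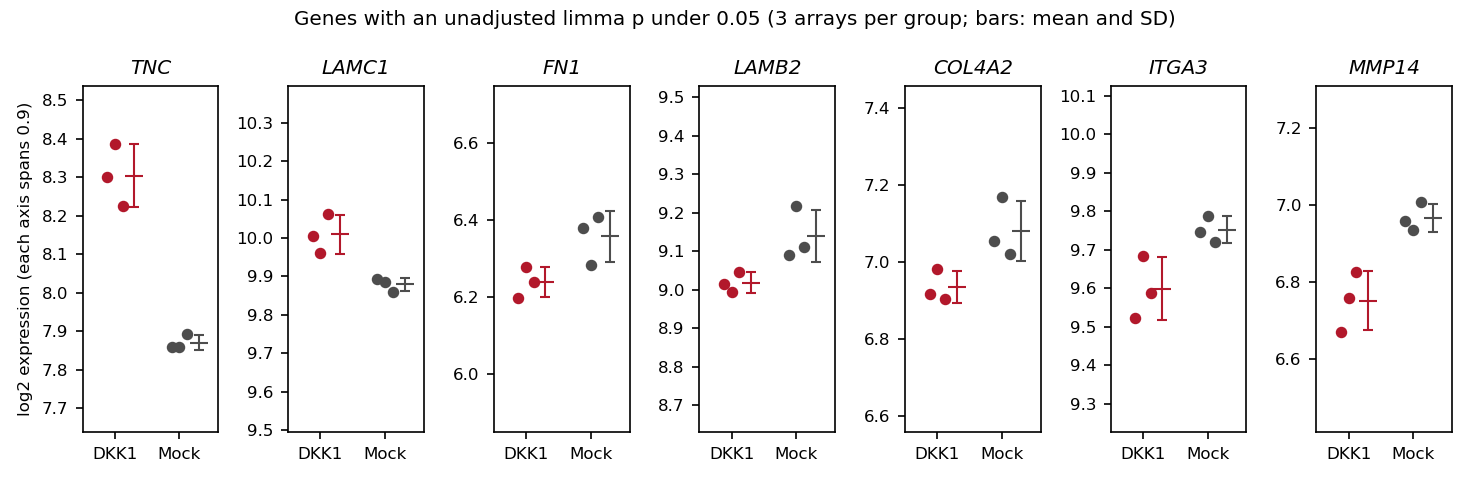
Log2 expression (vertical axes, each spanning 0.9) of the 7 genes with an unadjusted limma p under 0.05, with points for single arrays and bars for the mean ± SD (n = 3), DLD-1/DKK1 left of DLD-1/Mock. TNC shows the widest gap, with DLD-1/DKK1 arrays at 8.22 to 8.39 and DLD-1/Mock arrays at 7.86 to 7.89.

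The other adhesive glycoproteins differed less than TNC. Fibronectin (FN1), the main ligand of the integrin ITGA5/ITGB1, had log2 values of 6.20, 6.28 and 6.24 in DLD-1/DKK1 and 6.38, 6.28 and 6.41 in DLD-1/Mock. The groups did not overlap, although the highest DLD-1/DKK1 array, number 2, almost met Mock 2. The difference was -0.12 (interval -0.24 to -0.00075; limma adjusted p = 0.539), or -0.16 without Mock 2, opposite in sign to that of TNC. FN1 was dim, at 6.30 on average. Thrombospondin 1 (THBS1), an activator of latent TGF-beta, had 10.14, 10.20 and 10.17 in DLD-1/DKK1 and 10.11, 10.13 and 10.02 in DLD-1/Mock. Its DLD-1/DKK1 arrays also lay above those of DLD-1/Mock, by a narrow margin, with a difference of 0.083 and an interval of -0.028 to 0.19. SPARC, a collagen-binding matricellular protein, had a difference of 0.017 with an interval of -0.11 to 0.15, or 0.030 without Mock 2.

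Laminins are trimers of an alpha, a beta and a gamma chain, and 7 of the 8 listed chains were measured. Their differences were of both signs, 3 above 0 and 4 below with a median of -0.034, and after median centring that median was 0.019. LAMC1, the gamma chain of most laminins, had 10.01, 9.96 and 10.06 in DLD-1/DKK1 and 9.89, 9.89 and 9.86 in DLD-1/Mock. The groups did not overlap, and the difference was 0.13 (interval 0.028 to 0.23; limma adjusted p = 0.486). LAMB2, a beta chain that can take the place of LAMB1, had 9.02, 8.99 and 9.05 in DLD-1/DKK1 and 9.09, 9.22 and 9.11 in DLD-1/Mock. The DLD-1/DKK1 arrays were all lower here, with Mock 2 the highest, and the difference was -0.12 (limma adjusted p = 0.532) or -0.083 without Mock 2.

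LAMB1, the beta chain of laminin-111 and laminin-511, had 10.54, 10.56 and 10.53 in DLD-1/DKK1 and 10.49, 10.56 and 10.44 in DLD-1/Mock. The groups overlapped, with a difference of 0.047, or 0.078 without Mock 2. LAMB3, the beta chain of the hemidesmosomal laminin-332, had a difference of 0.043 and likewise overlapped. LAMA5, the alpha chain of laminin-511, had -0.052 (interval -0.19 to 0.084), with Mock 2 the highest array and -0.00082 without it. LAMA1, the alpha chain of laminin-111, had -0.093 and LAMA4, an alpha chain of vessel and muscle basement membranes, -0.034 (-0.0093 without Mock 2). Both LAMA1 and LAMA4 were dimmer than the olfactory receptor reference. Of the laminin alpha chains outside the list, LAMA2, the muscle laminin chain, had 7.87, 7.89 and 7.86 in DLD-1/DKK1 and 7.62, 7.51 and 7.64 in DLD-1/Mock. Its groups stood apart with a difference of 0.29 (limma adjusted p = 0.169), or 0.25 without Mock 2.

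All 8 measured collagen chains had differences below 0, with a median of -0.12 over the chains against -0.0072 over all genes, and 1 chain had an unadjusted limma p under 0.05. COL1A2 was above 0 after quantile normalisation (0.048) and after median centring (0.050). Median centring also brought the median over the chains to -0.065, beside 0.046 over all probe sets. Mock 2 was the highest of the 6 arrays for 8 of 8 collagen chains, as it was for 32.6% of all genes. Without Mock 2 the median was -0.036, 6 of 8 chains were below 0 and no chain had an unadjusted p under 0.05. The offset of Mock 2 over the mean of Mock 1 and Mock 3 had a median of 0.18 over the 8 chains and 0.014 over all genes. Summed log2 levels of the 8 fibroblast markers were 41.2 to 41.5 in DLD-1/DKK1 and 41.5 to 41.8 in DLD-1/Mock, and 7 of 8 were dimmer than the olfactory receptor reference. Those of the 5 endothelial markers were 26.9 to 27.2 in DLD-1/DKK1 and 27.1 to 27.8 in DLD-1/Mock, with Mock 2 the highest for 5 of 5. What part these had in the collagen values was not tested. The 8 chains were brighter than the olfactory receptor reference, at mean log2 levels of 6.18 to 7.47. COL4A1, COL5A1, COL1A2, COL3A1 and COL4A2, at 6.18 to 7.01, were dimmer than the smooth muscle marker DES, at 7.05. COL7A1, COL1A1 and COL6A1, at 7.15 to 7.47, were brighter than DES. Such levels do not by themselves show expression, and whether the differences reflect collagen transcripts or background signal was not tested.

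**Figure D3:**
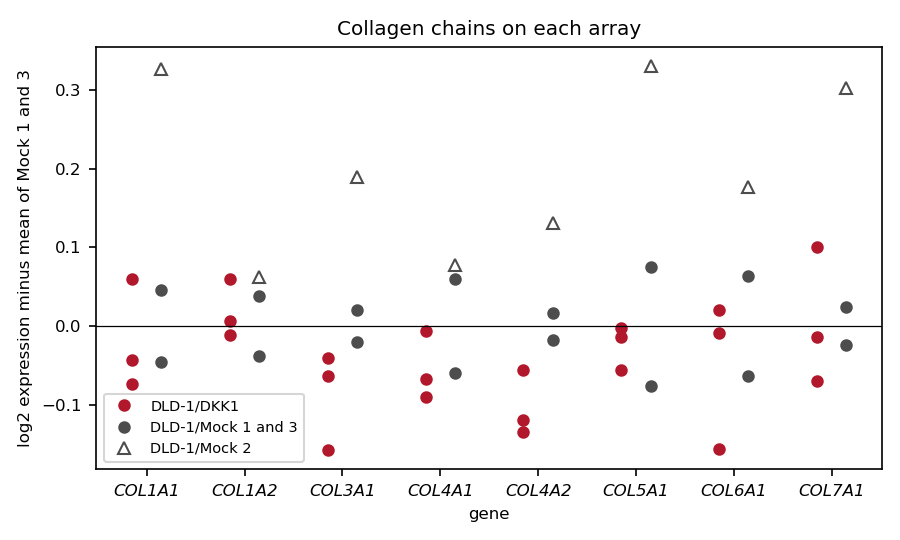
Log2 expression of the 8 collagen chains on each array minus the mean of Mock 1 and Mock 3 (vertical axis), with filled points for single arrays of DLD-1/DKK1, left, and DLD-1/Mock, right, and open triangles for Mock 2. The triangle is the highest symbol of every chain.

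COL4A2, a chain of the basement membrane collagen IV, had 6.92, 6.98 and 6.90 in DLD-1/DKK1 and 7.05, 7.17 and 7.02 in DLD-1/Mock. The groups did not overlap, and the difference was -0.15 (interval -0.27 to -0.019; limma adjusted p = 0.516) or -0.10 without Mock 2. Its partner chain COL4A1 had 6.10, 6.18 and 6.12 in DLD-1/DKK1 and 6.13, 6.27 and 6.25 in DLD-1/Mock. These overlapped, with a difference of -0.081 (interval -0.21 to 0.046). The pair is transcribed in opposite directions from neighbouring start sites 127 bases apart on chromosome 13, so that their promoter windows share 226 bases. The 128 bases from one start to the other, chr13:110307157-110307284 on the plus strand of GRCh38.p14 (the strand of COL4A2, from RefSeq), are printed to show this shared stretch, which is 79.7% G and C, with 1 GC box match in capitals.

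COL4A1-COL4A2: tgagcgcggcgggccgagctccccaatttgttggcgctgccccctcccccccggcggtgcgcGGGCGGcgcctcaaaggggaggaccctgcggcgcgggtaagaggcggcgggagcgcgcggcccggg

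The fibrillar collagens stood as follows. COL1A1, of collagen I, had a difference of -0.13 (interval -0.37 to 0.11), or -0.019 without Mock 2. COL5A1, of collagen V, also had -0.13, or -0.024 without Mock 2. COL3A1, of collagen III, was the fibrillar chain whose groups did not overlap, with -0.15 and an interval of -0.31 to 0.011, or -0.087 without Mock 2. The difference of COL1A2 was -0.0024, or 0.018 without Mock 2. COL6A1, of the beaded-filament collagen VI, had 7.31, 7.46 and 7.49 in DLD-1/DKK1 and 7.40, 7.64 and 7.53 in DLD-1/Mock. These overlapped, with a difference of -0.11 and an interval of -0.29 to 0.079, or -0.048 without Mock 2. COL7A1, which forms anchoring fibrils under epithelia, had -0.095, or 0.0057 without Mock 2.

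The 3 basement membrane linkers all had intervals that included 0. Agrin (AGRN), a heparan sulfate proteoglycan, had 9.48, 9.47 and 9.50 in DLD-1/DKK1 and 9.44, 9.57 and 9.42 in DLD-1/Mock. The DLD-1/DKK1 values lay inside the DLD-1/Mock range, and the difference was 0.0099 (interval -0.11 to 0.13) or -0.0079 after quantile normalisation and 0.056 without Mock 2. Perlecan (HSPG2) had a difference of -0.085 without overlap of the groups (interval -0.19 to 0.017). Nidogen 1 (NID1), which links laminin to collagen IV, had 0.079 with overlap and was dimmer than the olfactory receptor reference.

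Of the 11 measured integrin subunits, 7 had differences above 0 and 4 below, with a median of 0.0075 and a range of -0.15 to 0.087. ITGA3, which pairs with ITGB1 as a receptor of laminin-332 and laminin-511, had 9.52, 9.69 and 9.59 in DLD-1/DKK1 and 9.75, 9.79 and 9.72 in DLD-1/Mock. All DLD-1/DKK1 arrays lay below all DLD-1/Mock arrays, with a difference of -0.15 (interval -0.28 to -0.025; limma adjusted p = 0.509) or -0.13 without Mock 2. ITGA6, the other main laminin-binding alpha subunit of epithelia, had 12.15, 12.19 and 12.12 in DLD-1/DKK1 and 12.13, 12.08 and 12.15 in DLD-1/Mock. These overlapped, and the difference was 0.032 with an interval of -0.068 to 0.13, or 0.013 without Mock 2. ITGB4, its partner in hemidesmosomes, had a difference of 0.087 without overlap of the groups (interval -0.011 to 0.18; limma adjusted p = 0.568).

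Among the partners of other ligands, ITGB1, the common beta subunit, had a difference of 0.077 (interval -0.031 to 0.18). ITGA2, a collagen receptor subunit, had 0.015, or -0.00045 after quantile normalisation and 0.0034 without Mock 2. The fibronectin receptor subunit ITGA5 had -0.012 and ITGAV, which pairs with several beta subunits, -0.0017, and both were above 0 after median centring (0.040 and 0.051) and without Mock 2 (0.0070 each). The interval of ITGAV ran from -0.094 to 0.090, and the groups overlapped for all 4 of these subunits.

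The beta subunits that pair with ITGAV were ITGB3, ITGB5, ITGB6 and ITGB8. ITGB5 had 10.74, 10.74 and 10.71 in DLD-1/DKK1 and 10.72, 10.78 and 10.67 in DLD-1/Mock. The groups overlapped, with a difference of 0.0075, or -0.0071 after quantile normalisation and 0.038 without Mock 2. ITGB6, an epithelial subunit that activates TGF-beta, had 8.45, 8.40 and 8.29 in DLD-1/DKK1 and 8.43, 8.17 and 8.48 in DLD-1/Mock. Mock 2 was the lowest array here, and the difference of 0.019 was -0.076 without it. ITGB8, also an activator of TGF-beta, had -0.064 with an interval of -0.23 to 0.10, or -0.098 without Mock 2. ITGB3, dimmer than the olfactory receptor reference, had 0.0021, or 0.027 without Mock 2. Of the alpha subunits outside the list that bind tenascin-C, ITGA9 had a difference of 0.014 (0.080 without Mock 2) and the dim ITGA8 -0.099, both chosen for mention after their values were seen.

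**Figure D4:**
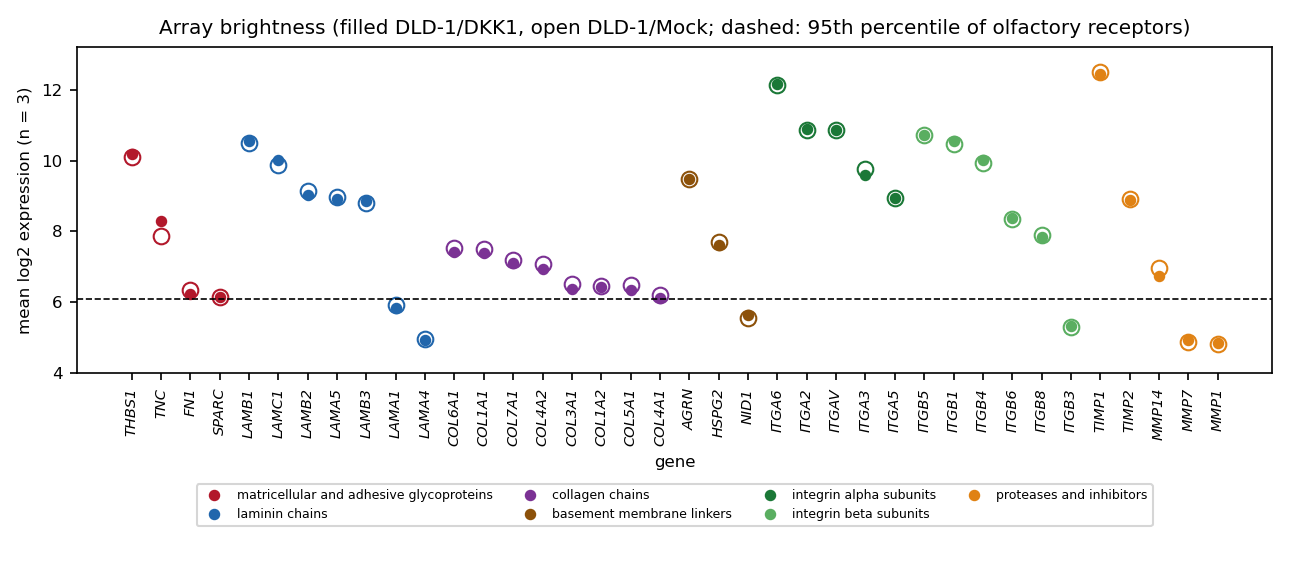
Mean log2 expression (vertical axis, n = 3) of the 38 genes, ordered by role, in DLD-1/DKK1 (filled) and DLD-1/Mock (open), with a dashed line at the 95th percentile of olfactory receptor genes, 6.10. Probe sets differ in brightness for equal amounts of RNA, so levels are read within a gene, and 6 genes lie below the line.

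In all, 32 of the 38 genes were brighter than the olfactory receptor reference, below which 40.7% of probe sets lay. The 6 dimmer ones were LAMA1, LAMA4, NID1, ITGB3, MMP1 and MMP7, and for these an expressed transcript was not shown at this brightness. SPARC and COL4A1 lay just above the reference, at 6.15 and 6.18. A level above it does not by itself show expression, since 4 of 4 smooth muscle markers, with DES at 7.05, also lay above it. The brightest probe sets were those of TIMP1 and ITGA6, at percentiles 97.8 and 96.9 of all probe sets, and TNC lay at percentile 64.2.

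Among the proteases, the membrane-bound collagenase MMP14, which activates MMP2 at the cell surface, had 6.67, 6.76 and 6.83 in DLD-1/DKK1 and 6.96, 6.94 and 7.01 in DLD-1/Mock. The DLD-1/DKK1 arrays were all lower. The difference was -0.22 (interval -0.34 to -0.090; limma adjusted p = 0.394), the lowest of the 38 genes, and -0.23 without Mock 2. TIMP1, a broad inhibitor of metalloproteinases, had 12.46, 12.45 and 12.44 in DLD-1/DKK1 and 12.48, 12.46 and 12.52 in DLD-1/Mock. These overlapped by a narrow margin, with a difference of -0.036 that was 0.016 after median centring. TIMP2, which takes part in MMP2 activation by MMP14, had -0.044 without overlap (interval -0.13 to 0.041), and 0.0081 after median centring. The dim MMP1, interstitial collagenase, had 0.042 and MMP7 had 0.055, both without overlap.

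Further matrix and adhesion genes give the surroundings of these 38. Of 116 listed, 111 were measured, and 0 passed an adjusted p of 0.05 in limma, while 21 (18.9%) had an unadjusted p under 0.05, 10 higher and 11 lower. This stands beside 9.23% of all probe sets and 10.1% of genes, and the counts per list that follow beside 4.02% of probe sets higher and 5.21% lower. Among 35 further matrix proteins, 7 differences were above 0 and 28 below, or 15 below after median centring. Their median was -0.041, or -0.022 without Mock 2, and 2 had an unadjusted p under 0.05 in each direction. The lowest difference was that of TGFBI, a secreted protein named for its induction by TGF-beta. It had 10.19, 10.17 and 10.19 in DLD-1/DKK1 and 10.53, 10.55 and 10.48 in DLD-1/Mock. The groups stood well apart, with a difference of -0.34 (limma adjusted p = 0.0665), and TGFBI passed in 4 of the alternative fits. THBS3, of the thrombospondin family, had 0.16. The tenascins TNR and TNN, chosen for mention after their values were seen, were dim and had -0.082 (-0.033 without Mock 2) and -0.099.

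Of 19 further integrins and matrix receptors, 1 had an unadjusted limma p under 0.05 with a higher value in DLD-1/DKK1 and 5 with a lower one. The laminin receptor BCAM, which binds LAMA5, had 7.84, 7.99 and 7.83 in DLD-1/DKK1 and 8.08, 8.11 and 8.13 in DLD-1/Mock, a difference of -0.22. The dim ITGA7, a laminin-binding alpha subunit, had -0.19, and the dim heparan sulfate proteoglycan SDC2 had -0.17, or -0.12 without Mock 2. These 3 receptors had no overlap between groups (limma adjusted p from 0.398 to 0.485). In the 21 adhesion complex proteins, which link integrins to actin, the counts were 5 higher and 1 lower. The talin TLN2, which activates integrins, had a difference of 0.16 and the focal adhesion protein TNS3 0.15, both without overlap. The tensin TNS4, which lacks the actin-binding part of the others, had -0.15, also without overlap.

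Collagen processing enzymes had 2 of 16 with an unadjusted limma p under 0.05, both higher in DLD-1/DKK1. P4HA1, the catalytic subunit of a collagen prolyl hydroxylase, had 10.00, 10.04 and 9.97 in DLD-1/DKK1 and 9.84, 9.65 and 9.77 in DLD-1/Mock. Its groups did not overlap, with a difference of 0.24 (limma adjusted p = 0.385), or 0.19 without Mock 2, its lowest array. The 8 collagen chains had differences below 0 and Mock 2 as their highest array, and without Mock 2 their median was -0.036. PLOD2, a collagen lysyl hydroxylase, had 0.16 and overlapped. Without Mock 2, its lowest array, it had 0.10 and an unadjusted limma p above 0.05. Of 20 further proteases and inhibitors, 3 had an unadjusted limma p under 0.05, each lower in DLD-1/DKK1. These were TIMP3, the inhibitor that binds to the matrix, with a difference of -0.22, the plasminogen activator PLAT with -0.19 and the membrane-type metalloproteinase MMP24 with -0.16, all without overlap. PLAT and MMP24 were dim, at 6.31 and 6.28 on average. The unadjusted limma p of MMP24 was above 0.05 without Mock 2.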

How the data were processed

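RNA of 3 DLD-1/DKK1 and 3 DLD-1/Mock dishes was labelled with biotin and hybridised to single-colour Affymetrix Human Gene 1.0 ST arrays. The deposited log2 values are those of the authors' robust multichip average (affy package), for which no version is given in the sources used here. That method equalises array distributions before probe sets are summarised, so a true shift shared by most transcripts cannot be read from these values. The medians of the probe sets still differed between arrays, from 6.76 to 6.86. No further normalisation was applied.

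Probe sets were named by the platform annotation, 19158 with 1 symbol, 1388 with several and 11775 with none, and symbols were updated through the gene number (19128 matched). For each gene the probe set with the highest mean was kept, and each measured member had 1. All 32321 probe sets entered 1 fit by limma 3.58.1 under R 4.3.3 (lmFit, eBayes, 4 residual and 2.56 prior degrees of freedom), two-sided, with Benjamini-Hochberg adjustment over all of them and 95% intervals. Promoters came from RefSeq, GRCh38.p14. Scripts ran in Python 3.11.15 with scipy 1.17.1 and matplotlib 3.10.9. The number of arrays limits the precision.

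The members and lists were chosen with earlier results of these data known. The rule named every member with its difference and gave array values for TNC, members with an unadjusted p under 0.05 and the brightest of each role group, then up to 3 genes with the smallest unadjusted p under 0.05 from each further list. On simulated arrays for this comparison (5 runs of 32321 probe sets, 200 changed), limma recovered 25.2% of changes of 0.3, 60.8% of 0.5, 78.4% of 0.7 and 90.0% of 1, and 5.50% of its calls were false. The alternatives tried were median centring or quantile normalisation, only the brighter or only the singly named probe sets, array weights, no moderation or a trended and robust prior, the replicate number as a block, the mean of a gene's probe sets and each array left out in turn.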

Additional observations from a re-analysis of the deposited data

How the results depend on the processing

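The number of probe sets past an adjusted p of 0.05 in limma, 28 as reported, was 66 above the median brightness, 100 among those with 1 gene symbol, 59 with array weights, 53 with a trended and robust prior, 17 after median centring, 1 without moderation, 1 with the replicate number as a block, and 2 to 6 with 1 array left out. Fewer probe sets or arrays entered the filtered and reduced fits, and otherwise the cause was not tested. Of the 38 genes, 1 (TNC) passed above the median brightness, among probe sets with 1 symbol (difference 0.43 in both) and with array weights (0.44), and 0 in every other setting. TNC was 0.39 to 0.47 with 1 array left out (limma adjusted p from 0.157 to 0.320). With the replicate block its adjusted p was 0.410. Same-numbered dishes had correlations of 0.105, 0.0082 and -0.14 between their deviations from the group means. Differently numbered dishes ran from -0.235 to 0.225. With 3 dishes per group, these values cannot show whether same-numbered dishes shared more than a number. The mean of a gene's probe sets changed nothing, since each of the 38 genes had 1.

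The 7 genes with an unadjusted p under 0.05 kept their sign in every setting whose fit held them, as did 16 others, and 15 genes turned in at least 1, none of which had passed. After median centring, which moved the median over all probe sets to 0.046, the differences were LAMA4 0.019, LAMA5 0.00016, COL1A2 0.050, ITGA5 0.040, ITGAV 0.051, TIMP1 0.016 and TIMP2 0.0081. After quantile normalisation they were COL1A2 0.048, AGRN -0.0079, ITGA2 -0.00045 and ITGB5 -0.0071, and with array weights ITGA5 0.022, ITGAV 0.011 and ITGB6 -0.030. With 1 array left out, the ranges that held both signs were SPARC -0.019 to 0.058, COL1A2 -0.032 to 0.018, COL7A1 -0.16 to 0.0057, AGRN -0.017 to 0.056, ITGA5 -0.058 to 0.017, ITGAV -0.018 to 0.0087, ITGB3 -0.038 to 0.035, ITGB5 -0.021 to 0.038, ITGB6 -0.076 to 0.080 and ITGB8 -0.098 to 0.0044. A dim signal limits what can be seen of LAMA1, LAMA4, NID1, ITGB3, MMP1 and MMP7, and of SPARC and COL4A1, just above the reference.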
